A study of Homo sapiens with 4 samples.

Results

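The transcripts of 10 genes of cystine uptake, glutathione production and the antioxidant response were followed by RNA-seq in 4 libraries of HAP1 cells, a nearly haploid human line that derives from a chronic myeloid leukaemia. The 10 genes were SLC7A11, SLC3A2, GCLC, GCLM, GSR, GPX4, TXNRD1, SRXN1, NQO1 and HMOX1, picked by name, not by a threshold on their values, out of the 57820 genes counted. Earlier results of these data were known when they were picked. All 10 were found by their Ensembl identifier, and 9 of them passed the filter on low counts that also left 15136 genes in all. Libraries dKO 1 and dKO 2 were made from RING1A and RING1B knockout cells, and tKO 1 and tKO 2 from cells without RING1A, RING1B and BAP1. All 4 were untreated, and RING1A/B loss is shared by both groups, so what that loss does to these genes cannot be read here. BAP1 and RING1A were disrupted with CRISPR/Cas9 by a STOP cassette that carries a resistance gene and a polyadenylation signal, in clones selected for resistance, and the RING1B KO line was bought in. The methods describe the 2 libraries of a group as independent biological replicates. How many clones they represent was not established here, and p-values measure only the spread between these libraries.

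SLC7A11 and SLC3A2 are the light and heavy chain of system xc-, the antiporter that brings cystine into the cell in exchange for glutamate. Cystine is reduced to cysteine, which glutamate-cysteine ligase, made of the subunits GCLC and GCLM, joins to glutamate in the step that limits glutathione synthesis. GPX4 uses glutathione to reduce lipid hydroperoxides in membranes, and its loss, or a shortage of cystine, leads to ferroptosis, an iron-dependent form of cell death. Several of the 10 genes are textbook targets of NRF2, a transcription factor that binds antioxidant response elements in their promoters and is degraded through KEAP1 and the ubiquitin ligase scaffold CUL3 when cells are not stressed. BAP1 is a deubiquitinase that removes ubiquitin from lysine 119 of histone H2A, which RING1A and RING1B place as parts of the Polycomb complex PRC1. SLC7A11 is a known BAP1-repressed gene in other cells, so tKO against dKO asks whether its level and that of its pathway differ with BAP1 where the mark's main writers are missing.

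The letters TGACNNNGC, the core of the antioxidant response element, were searched on both strands close to transcript starts. The windows ran from 250 bases before to 50 bases after each RefSeq transcript start (GRCh38.p14 table). A window was held for 7 of the 10 genes, and those of GCLM, SLC3A2 and TXNRD1 contained a match. Genes with a match made up 3 of these 7 (42.9%), 6 of the 19 genes with a window in a wider list of NRF2 targets (31.6%), and 16.1% of all genes with one. The wider list includes some of the 10 genes, and without them it was 4 of 14 (28.6%). A gene with several windows, such as SLC3A2 with 3, has more places for a match. Of all single windows, 13.3% held it. SLC7A11, HMOX1 and GSR had no entry. The stretches below hold the match in capitals with 20 bases on either side. They are printed 5′ to 3′ in the direction of transcription, and each was found exactly once in GRCh37, which gives their coordinates. A further match of TXNRD1, which reaches the start itself, is not shown. A match describes the letters and is not a bound site.
GCLM, chr1:94374992-94375040, minus strand, 34 to 26 bases before the start, core on the opposite strand: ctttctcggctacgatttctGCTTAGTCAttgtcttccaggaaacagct
SLC3A2, chr11:62649114-62649162, plus strand, 37 to 29 bases before the start of an inner transcript: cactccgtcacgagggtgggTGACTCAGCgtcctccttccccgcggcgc
TXNRD1, chr12:104609438-104609486, plus strand, 99 to 91 bases before the start: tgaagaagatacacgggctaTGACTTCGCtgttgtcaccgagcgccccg
TXNRD1, chr12:104680688-104680736, plus strand, 102 to 94 bases before the start of an inner transcript, core on the opposite strand: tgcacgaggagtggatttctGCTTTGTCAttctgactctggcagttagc

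The match of SLC3A2 also contains TGACTCA, the letters of an AP-1 site, which overlap the core by all 7 of their bases. The windows of GPX4, GCLC, NQO1 and SRXN1 held no match in these 300 bases. Sequence further from the starts was not searched, so these genes may hold the core elsewhere. The values of the 3 genes with a match, given below, differed in sign between tKO and dKO cells for SLC3A2 on the one hand and GCLM and TXNRD1 on the other, and none of them passed the test.

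Counts in genes were 18455410 and 17990784 in the dKO libraries and 16413169 and 16054590 in the tKO libraries, so that both tKO libraries were shallower than both dKO libraries. Values are given as CPM, which sets the total in genes of each library to the same sum, and 3 counts, taken as the lowest level a library can show, came to 0.163 to 0.187 CPM. Such floors cover counting error only. BAP1 itself had 2046 and 2010 counts in dKO cells against 158 and 107 in tKO cells, a log2 fold-change of -3.77 (limma adjusted p = 0.0065). RING1 (RING1A) had 12 to 17 counts in every library, and RNF2 (RING1B), whose disrupted locus is still transcribed, differed by -0.17 between the groups on the log2 scale. Of 5 markers of blood cells, the lineage HAP1 came from, SPI1 and MPO were at 0 counts in all libraries, and PTPRC, CD34 and CD33 had at most 5. In both tKO libraries a stretch of the genome was also low, on chromosome 3 in tKO 2 and on chromosome 10 in tKO 1, and none of the 10 genes lies in either. BAP1 itself lies in the chromosome 3 stretch, so in tKO 2 its knockout and the fall of the stretch cannot be told apart. In tKO 1, where that stretch was not low, the BAP1 count was low too.

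None of the 9 tested genes of the group was differentially expressed (DE, an adjusted p below 0.05 with a log2 fold-change beyond 1) between tKO and dKO cells. The adjusted p of each was 0.996 by limma over all tested genes, and 0 of 9 had an unadjusted p below 0.05. Among all 15136 tested genes 0.0132% were DE and 3.55% had an unadjusted p below 0.05, so few calls were made anywhere. Log2 fold-changes of the 9 genes ran from -0.40 for NQO1 to 0.16 for SLC3A2, with a median of -0.15. Of the 9, 8 were below 0, while the median over all tested genes was -0.0014. Both tKO libraries lay below both dKO libraries for 4 of the 9 genes, which holds for 15.9% of all tested genes, and above them for 1 of the 9, which holds for 15.8%. The 4 were taken after scaling by TMM, while in plain CPM HMOX1 overlapped and GSR did not, each by a small margin. The genes are not replicates of each other, and they were measured in the same 4 libraries.

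**Figure D1:**
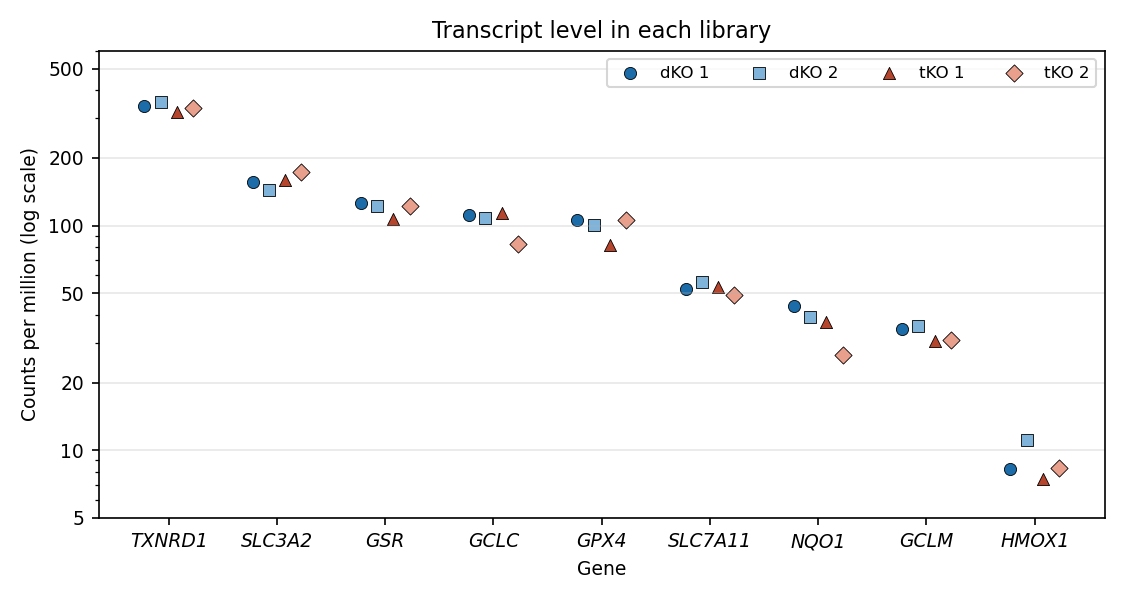
Level of the 9 tested genes in each library, in CPM on a log axis, with 1 symbol per library. TXNRD1 was counted most (320 to 356 CPM) and HMOX1 least (7.43 to 11.1 CPM). GCLC and GPX4 overlap in level, and the range of NQO1 (26.4 to 43.8 CPM) encloses that of GCLM (30.5 to 35.9 CPM).

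SLC7A11 (ENSG00000151012.9, GRCh37 chr4:139085251-139163503, minus strand) encodes the cystine-transporting chain. It stood at 52.0 and 56.1 CPM in dKO libraries and at 53.2 and 49.1 CPM in tKO libraries, from 959, 1009, 873 and 789 counts. The tKO values lay on either side of the lower dKO value, so the groups overlapped. The group means were 54.0 ± 2.91 CPM in dKO and 51.2 ± 2.86 CPM in tKO cells (SD, n = 2 each). SLC7A11 had a log2 fold-change of -0.07 with an SE of 0.12 and a 95% interval from -0.35 to 0.20 (limma adjusted p = 0.996). On the linear scale this interval runs from 0.785 to 1.15 times the dKO level. Rises of SLC7A11 above 1.15-fold lie outside it, and a p that misses the threshold does not show that the groups are equal. SLC7A11 differed less between the genotypes than most tested genes did, since 34.4% of them had a smaller log2 fold-change in size.

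SLC3A2 (ENSG00000168003.12, chr11:62623476-62656352, plus strand), the heavy chain that SLC7A11 and other amino acid transporters need to reach the membrane, was the member with the highest log2 fold-change. It had 156 and 144 CPM in dKO against 159 and 174 CPM in tKO libraries. Both tKO values were above both dKO values, the nearest pair being dKO 1 and tKO 1. This gave a log2 fold-change of 0.16 with an SE of 0.0989 and an interval from -0.08 to 0.39 (limma adjusted p = 0.996). The chains of system xc- thus had values of opposite sign, and each interval includes 0.

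The 3 genes of glutathione synthesis and recycling had lower mean levels in tKO cells, and none passed the test. GCLC (ENSG00000001084.6, chr6:53362139-53481768, minus strand), the catalytic subunit of the ligase, was at 111 and 109 CPM in dKO, 114 CPM in tKO 1 and 82.8 CPM in tKO 2. A single library set its difference: tKO 1 was at 103% of the dKO mean and tKO 2 at 75.4%. On the log2 scale the fold-change was -0.17 (95% interval -0.56 to 0.21). It was 0.065 without tKO 2 and -0.42 without tKO 1, where the limma adjusted p was 0.0076 with the single tKO library taken to vary like the dKO pair. A share of 6.14% of its exon bases is also covered by another annotated gene on the same strand.

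GCLM (ENSG00000023909.5, chr1:94350755-94375012, minus strand), the modifier subunit that raises the ligase's affinity for glutamate, behaved evenly across libraries. It stood at 34.6 and 35.9 CPM in dKO and at 30.5 and 30.9 CPM in tKO libraries, so that both tKO values were lower by a similar step. Against the dKO mean, tKO 1 was at 86.6% and tKO 2 at 87.7%. The log2 fold-change of -0.19 had an interval from -0.48 to 0.10. Both subunits of the ligase were therefore lower on average in tKO cells, GCLM in both libraries and GCLC in tKO 2 alone.

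GSR (ENSG00000104687.8, chr8:30535583-30585363, minus strand) reduces oxidised glutathione back to its active form with NADPH. It had 126 and 123 CPM in the dKO libraries, 107 CPM in tKO 1 and 123 CPM in tKO 2. Here tKO 1 was the low library. The value of tKO 2 was all but equal to that of dKO 2, just below it in plain CPM and above it after TMM scaling, on which the groups overlapped. The log2 fold-change was -0.12 with an interval from -0.36 to 0.13.

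GPX4 (ENSG00000167468.12, chr19:1103981-1106790, plus strand), a selenoprotein and the enzyme whose loss triggers ferroptosis, had 106 and 101 CPM in dKO, 81.7 CPM in tKO 1 and 105 CPM in tKO 2. Only tKO 1 stood below the dKO libraries, at 79.1% of their mean against 102% for tKO 2. The log2 fold-change was -0.15 with an interval from -0.47 to 0.17. Leaving out tKO 1 turned it to 0.021, and leaving out tKO 2 gave -0.32 (limma adjusted p = 0.149). No direction can be given for GPX4 from these 2 tKO libraries.

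TXNRD1 (ENSG00000198431.11, chr12:104609557-104744085, plus strand) is the cytosolic thioredoxin reductase, another selenoprotein, which keeps thioredoxin reduced and can also reduce cystine. It was at 340 and 356 CPM in dKO and at 320 and 332 CPM in tKO libraries. Both tKO values lay below both dKO values, and the nearest pair, dKO 1 and tKO 2, lay closer together than the dKO libraries did. With the deepest counts of the 10 genes, from 5245 to 6401 per library, it had the smallest SE (0.0834). Its log2 fold-change of -0.09 had an interval from -0.29 to 0.11.

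NQO1 (ENSG00000181019.8, chr16:69740899-69760571, minus strand), a quinone reductase that is widely used as a readout of NRF2 activity, had the lowest log2 fold-change of the group. Its level was 43.8 and 39.2 CPM in dKO libraries, 37.1 CPM in tKO 1 and 26.4 CPM in tKO 2. Both tKO libraries were below both dKO libraries, but the tKO libraries were further apart from each other than tKO 1 was from dKO 2. Against the dKO mean, tKO 1 was at 89.3% and tKO 2 at 63.6%. The log2 fold-change was -0.40, with an SE of 0.19 and an interval from -0.85 to 0.05 (limma adjusted p = 0.996). It was larger in size than that of 87.3% of tested genes. Without tKO 1 it was -0.66 with a limma adjusted p of 0.00024, still short of the fold-change asked of a DE gene, and without tKO 2 it was -0.14.

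HMOX1 (ENSG00000100292.12, chr22:35776354-35790207, plus strand), the inducible haem oxygenase that frees iron from haem, was the lowest tested member, with 152 and 200 counts in dKO and 122 and 134 in tKO libraries. These are 8.24 and 11.1 CPM in dKO and 7.43 and 8.35 CPM in tKO cells. In plain CPM tKO 2 and dKO 1 overlapped. After scaling by TMM, on which the counts of separated groups above are based, tKO 2 was just below dKO 1. The dKO libraries differed by 0.41 on the log2 scale, more than the log2 fold-change between groups, which was -0.27 with an interval from -0.80 to 0.25.

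SRXN1 (ENSG00000271303.1, chr20:627259-633844, minus strand), the sulfiredoxin that repairs overoxidised peroxiredoxins, had 1 and 4 counts in dKO and 0 and 1 in tKO libraries and was not tested. Its count cannot be read as a level. Of its 2528 exon bases, 90.7% are shared with a gene on the same strand, ENSG00000270299 (chr20:627270-656444), in the annotation used here, and reads that lie in exons of more than 1 gene are set aside by the counting. That gene had 0 counts in all 4 libraries, and between 418465 and 469297 reads per library were set aside as ambiguous over all genes.

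**Figure D2:**
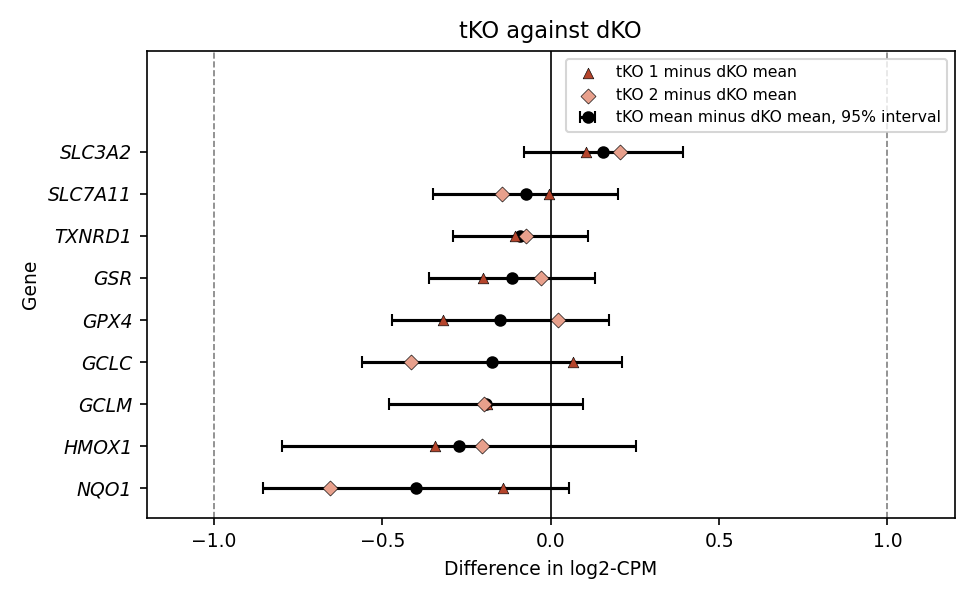
Difference in log2-CPM between tKO and dKO cells for the 9 tested genes (black, with the 95% interval from limma) and for each tKO library minus the dKO mean (red and pink). All 9 intervals include 0 and lie within 1 log2 unit of it (dashed lines), and the tKO libraries sit on opposite sides of 0 for GPX4 and GCLC.

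Levels can be compared between genes only per length, for which CPM was divided by the kilobases of annotated exon. GPX4 stood highest (53.5 ± 6.19 CPM per kb, SD over 4 libraries), followed by TXNRD1 (50.2 ± 2.26), GSR (33.2 ± 2.40) and SLC3A2 (24.7 ± 1.93). GPX4 and TXNRD1 could not be ordered, since their ranges overlapped and GPX4 was higher in 3 of 4 libraries. NQO1 (12.3 ± 2.48 CPM per kb) and GCLC (12.1 ± 1.65) also overlapped, with NQO1 higher in 2 of 4 libraries. GCLM (6.08 ± 0.491) was above SLC7A11 (5.45 ± 0.298) in all 4 libraries although their ranges overlapped, and HMOX1 was lowest (3.81 ± 0.697). The antiporter chains were thus unequal, with SLC7A11 at the level of the middle of the tested genes and SLC3A2 well above it. Per length, 51.1% of tested genes were lower than SLC7A11, 87.9% were lower than SLC3A2 and 95.4% were lower than GPX4. Exon lengths here join all annotated isoforms, which lowers the value of genes with long rarely used exons.

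The replicate libraries of the 9 genes lay about as close together as those of other genes, or closer. The median absolute log2 difference was 0.0886 between the dKO libraries and 0.140 between the tKO libraries, against 0.138 and 0.203 over all tested genes. Over genes above 5 CPM in every library, as all 9 were, it was 0.111 and 0.160. GCLC (-0.48) and NQO1 (-0.51) had the widest gaps from tKO 1 to tKO 2 on the log2 scale, both with tKO 2 lower, and GPX4 (0.34) had the next, with tKO 1 lower. Reads on the other strand made up 0 to 0.585% of the stranded counts of the 9 genes, below the 4.01 to 4.24% of whole libraries.

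The 3 genes whose profile over the 4 libraries was nearest to that of SLC7A11 were PRIM1, BBIP1 and BBX. PRIM1 encodes the small subunit of DNA primase, BBIP1 a part of the BBSome and BBX an HMG-box protein. Nearness was the Euclidean distance in log2-CPM centred on each gene's mean, among 11474 genes above 5 CPM, and came to 0.0022, 0.012 and 0.016 against a median of 0.262. PRIM1, the nearest, had 83.0 and 89.7 CPM in dKO and 85.0 and 78.4 CPM in tKO libraries. With 4 libraries and little difference between them, many profiles are near each other, and this is a description only.

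The wider pathway was read from 9 lists of 117 genes with the 10 genes among them, of which 114 were matched by identifier and 105 were tested. None of the 105 was DE. An unadjusted p below 0.05 was found for 5 of them, all lower in tKO cells, where 3.55% of all tested genes had one. These 5, chosen after their values were seen, were GGT1, CAT, GSTZ1, EPHX1 and AKR1C3. Log2 fold-changes were above 0 for 38 genes and below 0 for 67, with a median of -0.06, while over all tested genes 7523 were above and 7613 below. Both tKO libraries lay below both dKO libraries for 26 of the 105 and above for 7, against 15.9% and 15.8% of all tested genes.

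Among the 14 genes of cysteine supply and of glutathione synthesis, breakdown and recycling, 5 log2 fold-changes were above 0 and 9 below, with a median of -0.10. Per length the highest were GGCT, which breaks down gamma-glutamyl dipeptides (62.6 CPM per kb, log2 fold-change -0.07), and CBS, which starts the making of cysteine from homocysteine (54.1 CPM per kb, 0.04). Only GGT1, the surface enzyme that begins glutathione breakdown, passed 1 log2 unit of the 105. It had 1.68 and 2.00 CPM in dKO and 0.79 and 0.69 CPM in tKO libraries, from 31, 36, 13 and 11 counts. The log2 fold-change was -1.19 with an SE of 0.33 (limma adjusted p = 0.996), and near-identical copies of this gene make the counts uncertain.

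The 13 tested peroxidases, catalase and superoxide dismutases had a median of -0.08, with 4 above and 9 below 0. PRDX1 (460 CPM per kb, log2 fold-change 0.02) and PRDX5 (199 CPM per kb, -0.12), both peroxiredoxins, were the highest. CAT, which breaks down hydrogen peroxide, had 71.0 and 73.7 CPM in dKO and 57.9 and 62.0 CPM in tKO libraries, a log2 fold-change of -0.27 with an interval from -0.51 to -0.02. Its groups did not overlap, and it did not pass after adjustment over all genes (limma adjusted p = 0.996). In the thioredoxin and glutaredoxin list, 2 of 8 were above and 6 below 0, with a median of -0.05. TXN (175 CPM per kb, -0.04) and its mitochondrial form TXN2 (59.9 CPM per kb, 0.09) led by level.

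Of the 11 glutathione transferases, 2 were above and 9 below 0, with a median of -0.11. GSTP1 (297 CPM per kb, log2 fold-change -0.09) and GSTO1 (57.4 CPM per kb, -0.04) were highest. GSTZ1, of tyrosine breakdown, had 21.3 and 22.2 CPM in dKO and 16.9 and 16.3 CPM in tKO libraries (log2 fold-change -0.38, 95% interval -0.73 to -0.03). GSTM3 was the only one of the 105 tested list genes whose tKO libraries were over 2-fold apart. It had 6.56 and 8.45 CPM in dKO, 10.7 CPM in tKO 1 and 3.18 CPM in tKO 2, so the tKO libraries enclosed the dKO values from both sides.

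NRF2 and the factors that control it were near 0 in their differences, with 6 of 10 above and 4 below and a median of 0.01. NFE2L2, the gene for NRF2, was chosen here after its values were seen. It had 84.1 and 76.2 CPM in dKO and 86.7 and 73.1 CPM in tKO libraries, a log2 fold-change of -0.0036 with an interval from -0.31 to 0.31. NFE2L1 (32.4 CPM per kb, 0.01) and KEAP1 (23.7 CPM per kb, 0.06) were the highest per length. RNA levels do not measure the NRF2 protein, which is set mainly by its degradation.

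The NRF2 target genes were the longest list and by count had the most values below 0. By share, the glutathione transferases (9 of 11, median -0.11) and iron handling genes (9 of 11, median -0.05) were below 0 about as often. Of the 23 NRF2 target genes tested, 19 were below 0 and 4 above, with a median of -0.12, and 0 were DE. Both tKO libraries lay below both dKO libraries for 12 of them (52.2%) and above for 0, against 15.9% and 15.8% of all tested genes. The list holds 7 of the 9 genes described above, all below 0. Without these, 12 of 16 were below 0, 8 of 16 had both tKO libraries lower, and the median was -0.09. The medians were alike in both libraries, -0.13 in tKO 1 and -0.14 in tKO 2. FTL, the ferritin light chain (108 CPM per kb), had a log2 fold-change of -0.25 (95% interval -0.54 to 0.03) and PGD, of the pentose phosphate pathway (67.4 CPM per kb), one of -0.06. EPHX1, a microsomal epoxide hydrolase, had 27.4 and 27.5 CPM in dKO and 22.5 and 20.7 CPM in tKO libraries, a log2 fold-change of -0.34 (95% interval -0.67 to -0.0087). The libraries' depths separate the groups in the same way, and their part in these small differences was not tested.

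**Figure D3:**
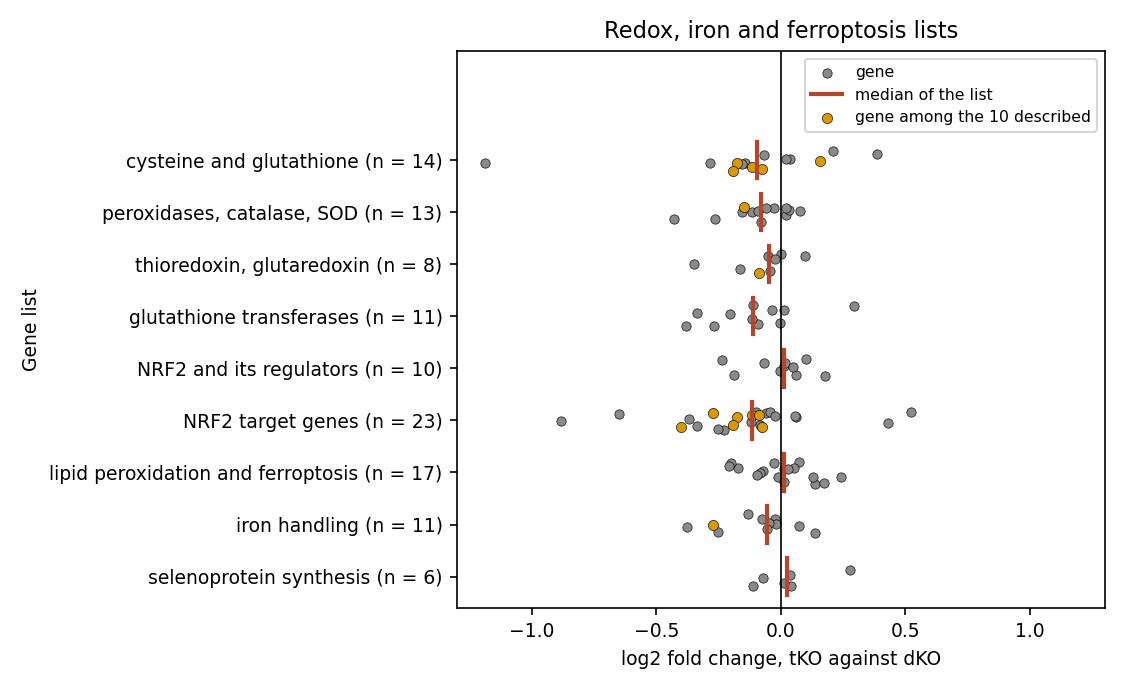
Log2 fold-change of tKO against dKO for each tested gene of the 9 lists, with list medians as red bars and the 10 named genes, where tested, in yellow. Medians lie between -0.12 for NRF2 target genes and 0.02 for selenoprotein synthesis, GGT1 is the point at -1.19, and a gene that belongs to several lists appears in each.

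Among the tested list genes, 4 lie in the stretches that were low in a tKO library. On chromosome 3, from position 238446 to 57113357, the 358 tested genes were off the dKO mean by a median of -0.92 in tKO 2 and 0.01 in tKO 1 on the log2 scale. GPX1, the cytosolic glutathione peroxidase, had 75.3, 81.2 and 74.6 CPM in dKO 1, dKO 2 and tKO 1 and 44.9 CPM in tKO 2. TKT, the transketolase of the pentose phosphate pathway, had 599, 608 and 534 CPM and then 276 CPM in tKO 2. For both genes tKO 2 was by far the lower tKO library, as for their neighbours. In tKO 1 GPX1 was at 95.4% and TKT at 88.5% of the dKO mean, so both tKO libraries lay below both dKO libraries for each. On chromosome 10, from 176028 to 38439221, the 131 tested genes had a median of -0.97 in tKO 1 and -0.03 in tKO 2. AKR1C3, an aldo-keto reductase with near-identical neighbours, had 4.33 and 3.95 CPM in dKO and 2.07 and 2.30 CPM in tKO libraries, and so was low in both. AKR1C1, a close copy, had 1.03 and 1.22 CPM in dKO, 1.16 CPM in tKO 1 and 2.06 CPM in tKO 2. Without the genes of these stretches, 17 of 20 NRF2 target genes were below 0, 10 of 20 had both tKO libraries lower, and the median was -0.11. Over all tested genes, those of the stretches included, 15.9% had both tKO libraries lower, and a share without the stretches was not computed.

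The list nearest to ferroptosis itself was spread around 0. Of 17 tested genes of lipid peroxidation and ferroptosis, 9 were above and 8 below 0, with a median of 0.01, and both tKO libraries were above both dKO libraries for 2 and below for 0, where 15.8% and 15.9% of all tested genes were. SCD, the stearoyl-CoA desaturase (97.4 CPM per kb, log2 fold-change -0.07), and HSPB1, a small heat shock protein (72.1 CPM per kb, 0.01), were highest. ALOX12, ALOX15, PTGS2 and GLS2 failed the filter on low counts. Of 11 iron handling genes 2 were above and 9 below 0, with a median of -0.05, and both tKO libraries were below both dKO libraries for 3 and above for 0. PCBP1, a chaperone that delivers iron to ferritin, was highest (176 CPM per kb, -0.13), followed by FTL. In selenoprotein synthesis, on which GPX4 and TXNRD1 depend, 4 of 6 were above 0, with a median of 0.02. SEPHS2, which makes selenophosphate (31.2 CPM per kb, 0.04), and EEFSEC, the elongation factor for selenocysteine (14.1 CPM per kb, -0.11), were its highest.

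**Figure D4:**
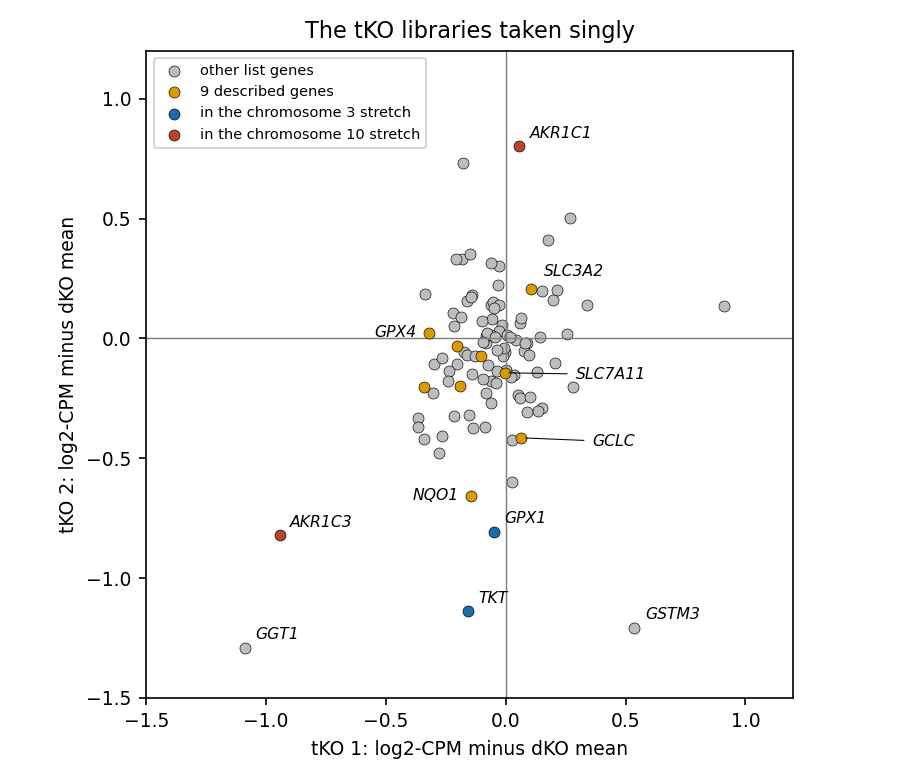
Log2-CPM minus the dKO mean in tKO 1 (horizontal) and tKO 2 (vertical) for the 105 tested list genes, with the 9 tested genes of the group in yellow and genes of the chromosome 3 and 10 stretches in blue and red. GPX1 and TKT are much lower in tKO 2 than in tKO 1, GSTM3 differs in sign between the tKO libraries, and SLC7A11 lies at -0.0046 and -0.14.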

How the data were processed

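Polyadenylated RNA of untreated HAP1 cells was made into stranded libraries, 2 dKO and 2 tKO, grouped by the genotype in the labels. The authors trimmed reads with cutadapt (1.12) under Trim Galore (0.4.4), removed ribosomal reads with Bowtie (1.2) and aligned the rest to GRCh37 with STAR (2.5.2b), names and versions as in the submitters' processing notes and the methods. The deposited values are raw read counts per gene from uniquely mapped reads, not normalised, and the column antisense to the gene was used. Reads in near-identical copies are therefore lost to all copies.

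Symbols, positions and exon lengths came from GENCODE 44 lifted to GRCh37, matched by identifier (55538 of 57820). SOD2, TXNIP and NCOA4 were not matched, and the counted annotation's own exon models were not used here. Genes above 0.5 CPM in at least 2 libraries were tested with limma (3.58.1) in R (4.3.3) on log2-CPM (TMM from edgeR 4.0.16, prior count 2, mean-variance trend, genotype only), with Benjamini-Hochberg adjustment over all tested genes. The filter, TMM, linear model and DE thresholds follow the methods of the study, and the prior count and trend were chosen here. The fit was also run on simulated counts with known changes, and the share of changes it recovered is not given here.

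The 10 genes and the lists were chosen with earlier results of these data known. Named besides them were BAP1, RING1 and RNF2, list genes that were DE, lay in either stretch or had tKO libraries over 2-fold apart at a mean above 5 CPM, the 2 highest genes per kilobase of each list, and the 3 nearest to SLC7A11. GGT1, CAT, GSTZ1, EPHX1 and NFE2L2 met none of these rules and were named after their values were seen. Alternatives were RLE size factors, library totals, no filter, CPM above 5, a prior count of 0.25, limma-voom, no trend, DESeq2 (1.42.0), the quasi-likelihood test of edgeR, unstranded counts, a replicate block and leaving out each library.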

Additional observations from a re-analysis of the deposited data

Results flagged for a closer look

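The strand column that the comparisons did not use held more than the library-wide share (4.24% at most) of stranded counts for 6 tested genes of the lists. The shares on the other strand, over the 4 libraries together, were 43.9% for LPCAT3, 33.2% for PSTK, 15.2% for SQSTM1, 7.65% for DHODH, 6.20% for GLRX5 and 4.97% for EPHX1. Genes on the opposite strand overlap LPCAT3 (EMG1), PSTK (IKZF5) and SQSTM1 (MGAT4B and MRNIP) in the annotation. From counts of both strands the log2 fold-changes of tKO against dKO were -0.03 for LPCAT3, 0.32 for PSTK, -0.15 for SQSTM1, 0.13 for DHODH, -0.03 for GLRX5 and -0.31 for EPHX1. None of the 9 tested genes of the group met this criterion.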

How the results depend on the processing

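No tested gene of the 10 was DE under any alternative. SLC7A11, SLC3A2, GCLM, GSR, TXNRD1, NQO1 and HMOX1 kept their sign in all of them, SLC7A11 between -0.14 and -0.0046 on the log2 scale with a library left out. GPX4 ranged from -0.32 without tKO replicate 2 to 0.021 without tKO replicate 1, and GCLC from -0.42 without tKO replicate 1 to 0.065 without tKO replicate 2. The median over the tested members lay between -0.17 and -0.12, and that over NRF2 targets between -0.14 and -0.11. The 2 DE genes of the whole table became 0 without a filter (1447 at an unadjusted p below 0.05), 1 with CPM above 5, the edgeR quasi-likelihood test, no trend or unstranded counts, 25 with DESeq2, and 0 to 492 with a library left out (183 without tKO replicate 2, 492 without tKO replicate 1, 0 without either dKO library). Left-out fits take the lone library to vary like the other pair. The wider list had 0 to 3 DE genes with a library left out, the 3 being GGT1, GSTM3 and TKT without tKO replicate 1, and 0 otherwise. Deviations of same-numbered libraries from their group means had a correlation of 0.0581 over the tested genes. With 2 libraries per group the 2 pairs hold the same value, which cannot show whether replicate numbers pair the libraries. A replicate block gave 13 DE genes in all, 0 among the 10 and 0 in the wider list, and an unadjusted limma p of 0.030 for NQO1 (adjusted p = 0.983). The printed intervals are for each gene alone and cover only the spread between these libraries, 2 per group, as estimated by limma.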
